A study of Mus musculus with 8 samples.

Results

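Lysosomal enzymes and membrane proteins were examined as a group of 31 genes, taken by gene symbol from the 16540 rows of a liver count table. The members are 9 proteases and peptidases, 8 glycosidases, 5 lipid hydrolases and cofactors, 5 membrane proteins, 2 proton pump genes and 2 transcription factors that act on lysosomal genes. All 31 were found in the table and all 31 passed the filter on low counts, which left 12307 genes for testing. The RNA came from livers of male Apoe-/- mice on a Western diet, of which 4 received vehicle (DMSO) and 4 received ISOGK. Loss of Apoe, an apolipoprotein that carries lipid remnants to the liver, makes mice prone to high plasma cholesterol and atherosclerosis, and both groups carried it. ISOGK is isoginkgetin, a biflavonoid found in Ginkgo biloba, and it was injected into the peritoneum at 20 mg/kg per day for 8 weeks. The comparison asks which liver transcripts differed after this treatment, and each group held 1 library from each of 4 mice.

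Lysosomes are acidic compartments in which acid hydrolases break down proteins, glycans and lipids that arrive by endocytosis and autophagy. A proton pump, the V-ATPase, acidifies the lumen, and heavily glycosylated membrane proteins such as LAMP1 and LAMP2 line it. In the liver, lysosomes of hepatocytes and of Kupffer cells, the resident macrophages, degrade lipoproteins taken up from blood and lipid droplets delivered by autophagy. Many lysosomal genes carry the E-box CACGTG near their start, to which TFEB and TFE3 bind once they enter the nucleus.

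This E-box was therefore looked for in the promoters of the members, using RefSeq windows on GRCm38.p6 that run from 250 bases before to 50 bases after the start of a transcript. Of the 28 members with an entry, 11 (39.3%) held CACGTG, against 8.09% of 27025 genes with an entry. The longer TCACGTGA, which contains CACGTG, was in 6 of the 28 members (21.4%) and in 1.12% of all genes. Both motifs read the same on either strand, so each site was counted once. Asah1, Ctsb and Ctsh had no entry. The 120 bases before the RefSeq start are shown for 4 members with CACGTG in capitals: Lamp1 and Mcoln1 because they held several copies, Ctsf because its transcript was higher with ISOGK, and Glb1 because its transcript was lower.
Lamp1 (chr8:13159041-13159160, plus strand): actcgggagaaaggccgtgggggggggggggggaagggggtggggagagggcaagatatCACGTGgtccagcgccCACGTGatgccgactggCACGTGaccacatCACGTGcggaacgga
Mcoln1 (chr8:3500399-3500518, plus strand): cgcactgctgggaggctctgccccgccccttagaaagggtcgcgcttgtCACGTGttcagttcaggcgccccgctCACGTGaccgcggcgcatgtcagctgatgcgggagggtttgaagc
Ctsf (chr19:4855045-4855164, plus strand): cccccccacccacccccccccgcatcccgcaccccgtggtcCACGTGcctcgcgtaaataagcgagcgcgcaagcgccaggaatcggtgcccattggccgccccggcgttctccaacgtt
Glb1 (chr9:114400958-114401077, plus strand): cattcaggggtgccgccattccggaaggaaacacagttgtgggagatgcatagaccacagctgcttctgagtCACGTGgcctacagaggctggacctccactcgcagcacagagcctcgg

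Lamp1 held 4 copies within these bases and Mcoln1 held 2, while Ctsf and Glb1 held 1 each. The RefSeq start lay 62 bases inside the GENCODE gene for Mcoln1, 35 bases inside it for Ctsf and 2 bases inside it for Glb1, and both sources gave the same start for Lamp1. A match describes the letters of the window and not binding. Among the 11 members with CACGTG in the whole window, 2 transcripts were higher and 1 was lower with ISOGK, and their median log2 fold change was -0.03. Among the 17 members whose window lacked these letters, 1 was higher and 0 were lower by edgeR, and the median was 0.02. This split goes by the RefSeq window alone, and some windows lay further inside the GENCODE gene. The matching windows of Ctsl, Atp6v1a, Ctsa and Cln3 had starts 370, 446, 900 and 2581 bases inside it, and their matches also lay inside it. The match of Naglu (start 82 bases inside) lay inside its GENCODE gene as well. For Ctsd (start 211 bases inside) and Mcoln1, the copy nearer the RefSeq start lay inside the gene and the further copy lay before it. Grn, the called gene without a match, had a RefSeq start 192 bases inside its GENCODE gene.

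Total gene counts were 19605286 to 24461854 per vehicle library and 17457106 to 21626399 per ISOGK library. Apoe itself had 3252 to 6489 counts in every library, so a count summed over the whole gene did not check the genotype. Albumin, which marks hepatocytes, stood at 105235 to 141273 CPM (gene counts relative to the size of the library, scaled with TMM factors), and the 10 hepatocyte markers held 0 genes called by edgeR, with 1 at an unadjusted p under 0.05 and 1 called by DESeq2. The library of vehicle mouse 4 stood apart in 10 skeletal muscle markers, which summed to 70.9 CPM there and to at most 0.629 CPM in any other library.

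Of the 31 members, 3 were higher and 2 were lower in ISOGK-treated livers at an edgeR adjusted p under 0.05, and 26 did not pass the test. Ctsl, Grn and Ctsf were the higher genes, and Ctsb and Glb1 were the lower ones. The called share was 16.1% of the members and 7.55% of all tested genes, of which 4.11% were higher and 3.44% were lower. At an absolute log2 fold change over 1, 0 members passed with edgeR, DESeq2 or limma-voom, beside 1.63% of all tested genes in edgeR. An unadjusted p under 0.05 was reached by 10 members in edgeR. DESeq2 called 6 members, beside 765 higher and 670 lower genes of the 12307 tested. When libraries were scaled by their totals alone, 2 members were higher and 6 were lower, beside 262 higher and 804 lower genes in the whole table (506 and 423 with TMM). Without vehicle mouse 2 the called members were Ctsb and Ctsl, and without vehicle mouse 4, whose library held the muscle markers, they were Ctsb, Ctsl and Grn. The whole table held 219 higher and 160 lower genes without vehicle mouse 2, and 299 and 251 without vehicle mouse 4. The median log2 fold change of the members was 0.02, beside 0.00 for all tested genes, with 16 members above 0 and 15 below.

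The ISOGK and vehicle groups did not overlap for 8 of the 31 members, beside 15.3% of all tested genes. These were the 5 called genes and Gla, Hexa and Smpd1. For each of the 8, the exact permutation test on log2 CPM gave p = 0.0286 (two-sided), which is the smallest p that 4 mice against 4 allow. Groups that do not overlap give this p by construction, so it adds nothing to the lack of overlap.

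**Figure D1:**
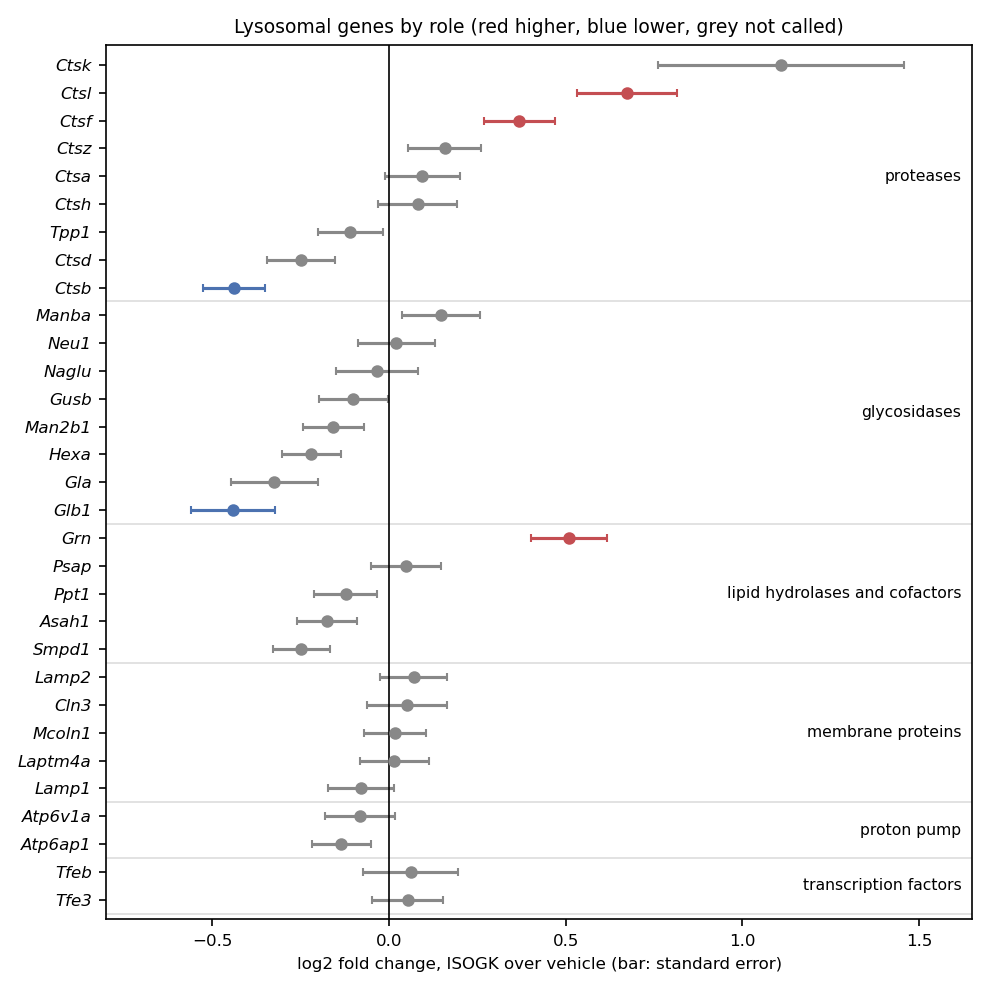
Log2 fold change (ISOGK over vehicle, edgeR) of the 31 members on the horizontal axis, grouped by role, with bars for 1 standard error, red for higher, blue for lower and grey for not called. Ctsl, Grn and Ctsf are the red points and Ctsb and Glb1 the blue ones, and the membrane proteins, pump genes and transcription factors lie near 0.

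The summed level of the members showed no such separation once libraries were scaled. The 31 genes summed to 5911 to 6161 CPM in the vehicle group and to 5805 to 6456 CPM in the ISOGK group. As a share of unscaled counts, the members took 0.601%, 0.618%, 0.650% and 0.645% in vehicle mice 1 to 4 and 0.590%, 0.588%, 0.588% and 0.570% in ISOGK mice 1 to 4. The unscaled shares did not overlap and the scaled sums did, so the direction of the whole group rested on the scaling. The median of all tested genes was -0.13 when libraries were scaled by their totals alone, and that of the members was then -0.12.

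**Figure D2:**
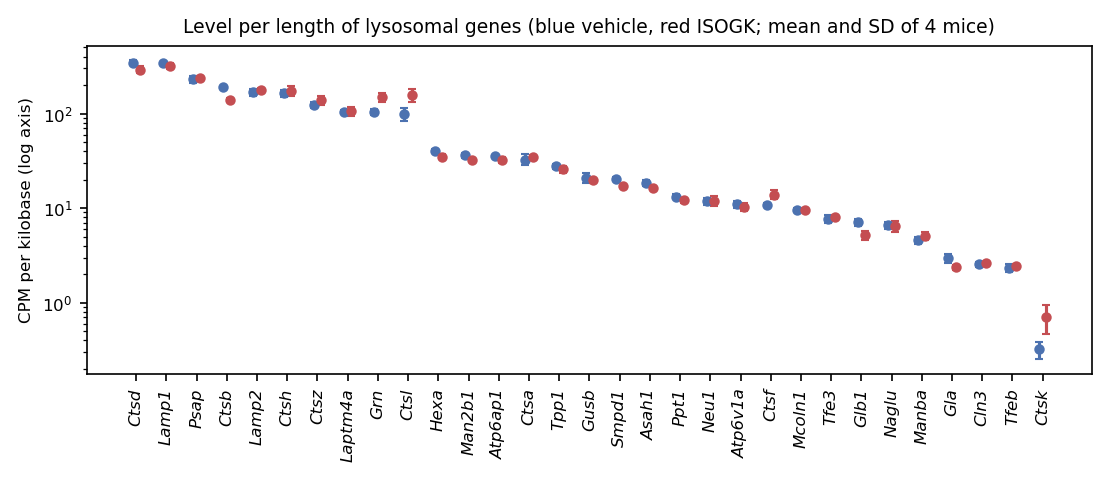
Level of each member per kilobase of its transcript (CPM per kilobase, log axis) in vehicle-treated (blue) and ISOGK-treated (red) livers, with points for the mean and bars for the SD of 4 mice, ordered by the vehicle group. Ctsd and Lamp1 stand at the top and Tfeb and Ctsk at the bottom.

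Per length, the members spanned a wide range. The level was divided by the longest principal transcript in GENCODE M21, in the vehicle group. Ctsd, an aspartic protease, had the highest level with 344 ± 19.9 CPM per kb (SD, n = 4), followed by Lamp1 with 339 ± 10.2 CPM per kb, and the mice of these 2 genes overlapped. The lowest levels were those of Tfeb with 2.31 CPM per kb and Ctsk with 0.322 CPM per kb. Of the 30 pairs of neighbours in this order, 16 had overlapping mice and 14 did not. The level of Ctsl per length is uncertain, since its model of 6168 bases is long and a shorter transcript would raise it.

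Among the proteases, Ctsl and Ctsb moved in opposite directions. Both encode cysteine cathepsins that degrade proteins in the lysosome. Ctsb (chromosome 14, 63122462 to 63145923, GRCm38) stood at 893, 878, 883 and 943 CPM in vehicle mice 1 to 4 and at 700, 623, 656 and 674 CPM in ISOGK mice 1 to 4. Every ISOGK-treated mouse was below every vehicle-treated mouse, and the spread within each group was small beside the gap. Ctsb fell by 0.44 on the log2 scale (SE, the standard error, 0.09, adjusted p = 0.0118 in edgeR). Ctsl (chromosome 13, 64359337 to 64370890) stood at 632, 717, 483 and 614 CPM in the vehicle group and at 838, 1106, 849 and 1104 CPM in the ISOGK group. The groups did not overlap, although the mice of each group spread more widely than for Ctsb. The log2 fold change of Ctsl was 0.67 (SE 0.14, adjusted p = 0.0152 in edgeR).

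The ratio of Ctsl to Ctsb within each liver, chosen after their values were seen and given without a test, was 0.708, 0.816, 0.546 and 0.651 in vehicle mice 1 to 4 and 1.20, 1.78, 1.29 and 1.64 in ISOGK mice 1 to 4. Each ISOGK-treated mouse had a higher ratio than any vehicle-treated mouse. This ratio is one of CPM within a library and does not depend on the scaling, but it is not corrected for transcript length. The calls of Ctsb and Ctsl were kept in each of the 16 alternative fits, with adjusted p-values of up to 0.0434 and 0.0488.

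**Figure D3:**
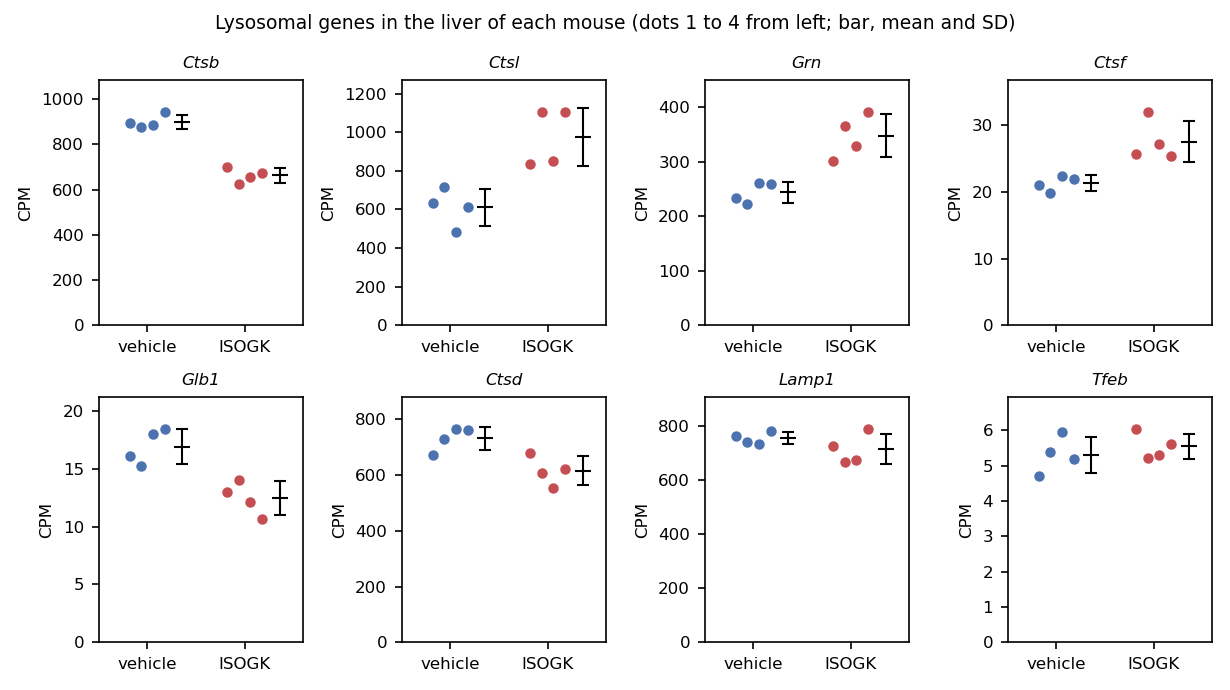
CPM of the 5 called members and of Ctsd, Lamp1 and Tfeb in each mouse, with dots for mice 1 to 4 from the left and bars for the mean and SD (n = 4 per group), on axes that start at 0. The groups are apart for Ctsb, Ctsl, Grn, Ctsf and Glb1 and overlap for Ctsd, Lamp1 and Tfeb.

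Ctsf, a further cysteine cathepsin, was present at much lower counts. It stood at 21.1, 19.8, 22.4 and 22.0 CPM in vehicle mice 1 to 4 and at 25.7, 32.0, 27.2 and 25.3 CPM in ISOGK mice 1 to 4. The groups did not overlap, with ISOGK mouse 2 above the other three. Its log2 fold change was 0.37 (SE 0.10, adjusted p = 0.0465 in edgeR), and the call was kept in 6 of 16 alternatives. It was lost without any 1 of the vehicle-treated mice, without ISOGK mouse 2 and without ISOGK mouse 3, with adjusted p-values of 0.0549 to 0.142 in these fits, and with libraries scaled by their totals alone the log2 fold change was 0.24 (adjusted p = 0.204).

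The other 6 proteases did not pass the test. Ctsk, a collagen-degrading cathepsin best known from osteoclasts, had the largest fold of all members but rested on 8 to 25 counts per library. It stood at 0.401, 0.633, 0.467 and 0.447 CPM in vehicle mice 1 to 4 and at 1.23, 1.27, 1.24 and 0.524 CPM in ISOGK mice 1 to 4. ISOGK mice 1 to 3 lay above the vehicle group and ISOGK mouse 4 lay within it. The log2 fold change was 1.11 (SE 0.35, adjusted p = 0.0747 in edgeR), and without ISOGK mouse 4 it was 1.33 (adjusted p = 0.029). Ctsd had a log2 fold change of -0.25 (adjusted p = 0.142 in edgeR), with a 95% interval of -0.46 to -0.04. The remaining 4 were the carboxypeptidases Ctsa and Ctsz, the aminopeptidase Ctsh and the tripeptidyl peptidase Tpp1, with log2 fold changes of -0.11 to 0.16.

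**Figure D4:**
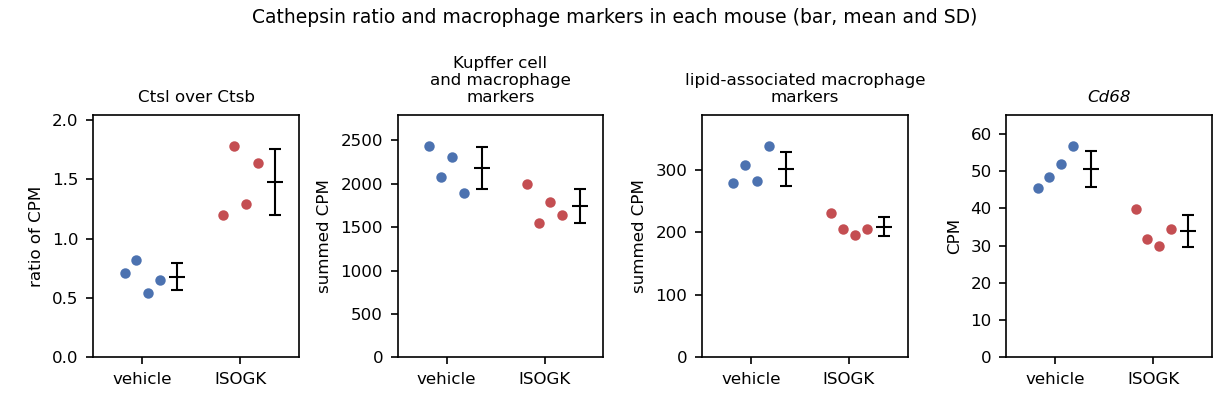
Ratio of Ctsl to Ctsb CPM, summed CPM of the Kupffer cell and macrophage markers, summed CPM of the lipid-associated macrophage markers, and Cd68 CPM, with dots for mice 1 to 4 from the left and bars for the mean and SD (n = 4 per group). The ratio is higher in each ISOGK-treated mouse than in any vehicle-treated mouse, and Cd68 and the summed lipid-associated macrophage markers lie lower with ISOGK without overlap, the latter through Gpnmb, since the other 7 markers summed overlap.

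Of the 8 glycosidases, which remove sugars from glycoproteins, glycolipids and glycosaminoglycans, 1 was lower and 0 were higher by edgeR. Glb1 encodes beta-galactosidase, which takes the terminal galactose from GM1 ganglioside and keratan sulfate (chromosome 9, 114401076 to 114474898). It stood at 16.1, 15.2, 18.0 and 18.4 CPM in vehicle mice 1 to 4 and at 13.0, 14.0, 12.2 and 10.6 CPM in ISOGK mice 1 to 4. The groups did not overlap, and ISOGK mouse 4 was the lowest. Glb1 fell by 0.44 on the log2 scale (SE 0.12, adjusted p = 0.0435 in edgeR). The call was lost in each of the 8 fits that left out a mouse (adjusted p = 0.0522 to 0.12) and was kept in 7 of the 16 alternatives.

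Gla, the alpha-galactosidase A that is deficient in Fabry disease, and Hexa, the alpha subunit of hexosaminidase, had groups that did not overlap but missed the adjusted threshold. Gla had a log2 fold change of -0.32 (95% interval -0.59 to -0.06, edgeR adjusted p = 0.13). Hexa had one of -0.22 (95% interval -0.40 to -0.04, edgeR adjusted p = 0.134). The sialidase Neu1, the beta-glucuronidase Gusb, the mannosidases Man2b1 and Manba and the heparan sulfate enzyme Naglu had log2 fold changes of -0.16 to 0.15. The 8 glycosidases together summed to 343 to 374 CPM in the vehicle group and 327 to 334 CPM in the ISOGK group, and 6 of the 8 had a negative fold change, with a median of -0.13.

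Grn was the only called gene among the 5 lipid hydrolases and cofactors. It encodes progranulin, which is taken to lysosomes and cut into granulins there (chromosome 11, 102430315 to 102437048). Grn stood at 233, 222, 261 and 260 CPM in vehicle mice 1 to 4 and at 302, 366, 329 and 391 CPM in ISOGK mice 1 to 4. Each ISOGK-treated mouse was above each vehicle-treated mouse. The log2 fold change was 0.51 (SE 0.11, adjusted p = 0.0149 in edgeR), and of the 16 alternatives the call was lost only without vehicle mouse 2 (0.47, adjusted p = 0.0652).

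Psap, the precursor of the saposins that present sphingolipids to their hydrolases and a partner of progranulin on its way to the lysosome, did not pass the test, with a log2 fold change of 0.05 (95% interval -0.16 to 0.26). The ratio of Grn to Psap CPM, again chosen after the values were seen, was 0.425, 0.385, 0.389 and 0.405 in the vehicle group and 0.446, 0.611, 0.537 and 0.621 in the ISOGK group. Smpd1, the acid sphingomyelinase, had groups that did not overlap and a log2 fold change of -0.25 (95% interval -0.42 to -0.07, edgeR adjusted p = 0.0849). It passed the threshold with DESeq2 (adjusted p = 0.0346). The acid ceramidase Asah1 and the thioesterase Ppt1 had log2 fold changes of -0.18 and -0.12.

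None of the 5 membrane proteins, 2 pump genes and 2 transcription factors was called by edgeR, DESeq2 or limma-voom, and 0 of them had an unadjusted p under 0.05 in edgeR. Lamp1, the membrane glycoprotein with the smallest p of its role, stood at 765, 740, 733 and 782 CPM in vehicle mice 1 to 4 and at 726, 669, 675 and 789 CPM in ISOGK mice 1 to 4. The groups overlapped, and ISOGK mouse 4 was the highest of all. Its log2 fold change was -0.08 (95% interval -0.28 to 0.12, edgeR adjusted p = 0.649). Lamp2, whose splice forms include the receptor of chaperone-mediated autophagy, had 0.07 (95% interval -0.14 to 0.28). The calcium channel Mcoln1, Cln3, which is mutated in juvenile Batten disease, and Laptm4a had log2 fold changes of 0.02 to 0.05.

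Atp6ap1, an accessory subunit of the proton pump, stood at 75.5, 78.0, 78.9 and 75.9 CPM in vehicle mice 1 to 4 and at 71.0, 67.7, 65.5 and 76.7 CPM in ISOGK mice 1 to 4. ISOGK mouse 4 lay among the vehicle-treated mice and the other three lay below them. The log2 fold change was -0.13 (95% interval -0.32 to 0.05), and that of Atp6v1a, a catalytic subunit, was -0.08. Tfe3 stood at 26.1, 24.6, 28.0 and 22.2 CPM in the vehicle group and at 28.2, 25.1, 24.4 and 27.2 CPM in the ISOGK group, with overlapping mice and a log2 fold change of 0.05 (95% interval -0.16 to 0.27). Tfeb had 0.06 (95% interval -0.23 to 0.36) at 94 to 153 counts per library. Both factors are controlled largely by phosphorylation and entry into the nucleus, which RNA counts do not measure.

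Further lysosome and autophagy genes were counted from lists of 124 symbols, of which 122 were tested. Of these, 11 were higher and 5 were lower (13.1% called), with a median log2 fold change of -0.0039. Of all tested genes, 7.55% were called, 4.11% higher and 3.44% lower. Of the 16 calls in the wider lists, 4 were kept in all 16 alternatives (Gm2a, Slc36a1, Sqstm1 and Map1lc3a), and the other 12 were each lost in 2 to 12 of them. Acp5, Pla2g15, Gaa, Hgsnat, Tpcn1, Laptm4b, Atg5 and Optn were lost without any 1 of the vehicle-treated mice, and Gabarapl2, Atg2a and Bnip3 were lost without vehicle mouse 2, vehicle mouse 3 or ISOGK mouse 2, among others. Without vehicle mouse 2 there were 2 higher and 2 lower genes in these lists, beside 219 higher and 160 lower in the whole table. Among 32 other hydrolases, 3 were lower and 1 was higher. Gm2a, the activator that lifts GM2 ganglioside to hexosaminidase, fell by 0.59 (edgeR adjusted p = 0.00945). The acid phosphatase Acp5 fell by 0.47 (adjusted p = 0.0421) and the phospholipase Pla2g15 fell by 0.46 (adjusted p = 0.0461), each on the log2 scale. Gaa, the acid alpha-glucosidase that degrades glycogen, had a log2 fold change of 0.33 (adjusted p = 0.0493 in edgeR).

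Gm2a stood at 94.1, 108, 114 and 132 CPM in vehicle mice 1 to 4 and at 78.4, 66.0, 78.0 and 76.1 CPM in ISOGK mice 1 to 4. The groups did not overlap, and the call was kept in all 16 alternatives.

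Among 26 other membrane proteins, 2 were higher and 2 were lower. Slc36a1, an amino acid exporter of the lysosome, fell by 0.73 on the log2 scale (edgeR adjusted p = 0.00592), and the cation channel Tpcn1 fell by 0.46 (adjusted p = 0.0461). Hgsnat, which acetylates heparan sulfate across the membrane, rose by 0.33 (adjusted p = 0.0262), and Laptm4b rose by 0.37 (adjusted p = 0.0497). Of 10 sorting genes, 1 was called: Sort1, the sortilin receptor, rose by 0.73 (adjusted p = 0.0154), a call lost without vehicle mouse 2 (adjusted p = 0.0608) and without ISOGK mouse 2 (adjusted p = 0.0511). Among the 14 other pump subunits, 0 were called by edgeR, DESeq2 or limma-voom and 3 had an unadjusted p under 0.05 in edgeR, with 12 of 14 fold changes above 0 and a median of 0.14. The 11 tested genes of the TFEB family and its control held 0 calls by edgeR, 3 unadjusted p-values under 0.05 and 1 call by DESeq2.

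**Figure D5:**
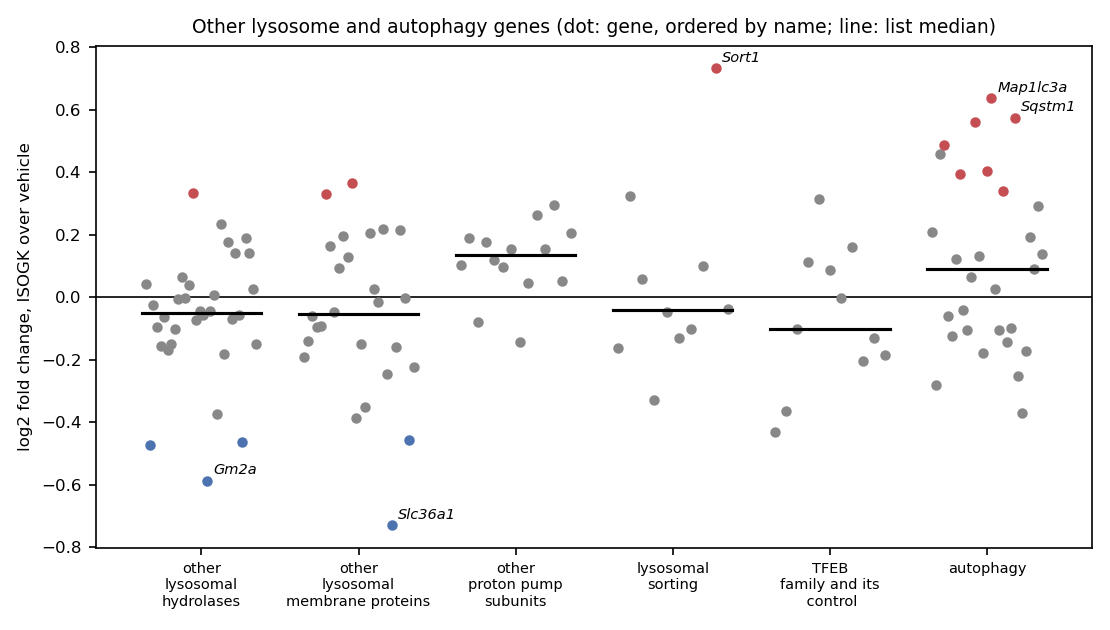
Log2 fold change (ISOGK over vehicle, edgeR) of each gene of the wider lysosome and autophagy lists on the vertical axis, with 1 dot per gene, red for higher, blue for lower, grey for not called and a line for each list's median. The autophagy list holds 7 red and 0 blue dots, and the other hydrolases hold 1 red and 3 blue.

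The autophagy list held 7 higher and 0 lower genes of 29 by edgeR, with 11 at an unadjusted p under 0.05 and a median of 0.09. Its called share was 24.1%, beside 7.55% of all tested genes, of which 4.11% were higher. Like all lists here, it was chosen with earlier results of these data known, so this share is not independent evidence. Without vehicle mouse 2, only Sqstm1 and Map1lc3a of the 7 stayed called. Sqstm1, which encodes the cargo receptor p62, stood at 392, 395, 397 and 416 CPM in vehicle mice 1 to 4 and at 568, 600, 544 and 672 CPM in ISOGK mice 1 to 4. The groups were far apart beside their spread. Sqstm1 had a log2 fold change of 0.57 (adjusted p = 0.00467 in edgeR), and Map1lc3a, an LC3 protein of the autophagosome membrane, had one of 0.64 (adjusted p = 0.00516). Both calls were kept in all 16 alternatives. Gabarapl2, Atg2a and Bnip3 had log2 fold changes of 0.40, 0.49 and 0.56 with edgeR adjusted p-values of 0.03, 0.031 and 0.0337. The other two, Atg5 and Optn, are named only to complete the count, with log2 fold changes of 0.40 and 0.34.

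Markers of other liver cells were set beside these values, since in whole liver fewer cells of a type and less RNA per cell cannot be told apart. Of 16 Kupffer cell and macrophage markers, 0 were higher and 1 (6.25%) was lower by edgeR, while 3.44% of all tested genes were lower. Of these markers, 13 had a negative fold change, and the median was -0.27. They summed to 1890 to 2431 CPM in the vehicle group and to 1551 to 1994 CPM in the ISOGK group, with overlap, and none was at 0 in any library. The called gene was Cd68, itself a lysosomal membrane glycoprotein of macrophages, which fell by 0.57 on the log2 scale (edgeR adjusted p = 0.009). Clec4f, which marks Kupffer cells, and Adgre1, the macrophage antigen F4/80, did not pass, with log2 fold changes of 0.06 and -0.78 (edgeR adjusted p = 0.251 for Adgre1).

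Of 8 lipid-associated macrophage markers, 2 were lower (25%), beside 3.44% of all tested genes. Gpnmb, an endolysosomal glycoprotein, stood at 153, 164, 149 and 182 CPM in vehicle mice 1 to 4 and at 77.9, 65.4, 72.4 and 68.1 CPM in ISOGK mice 1 to 4, a fall of 1.19 on the log2 scale (edgeR adjusted p = 6.48e-05). Lgals3 fell by 0.63 (edgeR adjusted p = 0.0387). That call was kept in 9 of 16 alternatives and was lost when any 1 mouse other than ISOGK mouse 1 was left out (adjusted p up to 0.111). The list had no common direction, with 4 fold changes above 0, 4 below and a median of -0.02. The 8 markers summed to 278 to 337 CPM in the vehicle group and to 195 to 230 CPM in the ISOGK group, and this gap was that of Gpnmb. Without Gpnmb, the other 7 markers summed to 125, 143, 133 and 155 CPM in vehicle mice 1 to 4 and to 152, 140, 123 and 138 CPM in ISOGK mice 1 to 4, with overlap. The part of macrophages in the called members was not tested.

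Of the called members, 4 share exon bases with another gene. Overlaps on opposite strands matter where counting does not use strand, and those on the same strand matter either way. Ctsb shares 774 exon bases with Fdft1 on the opposite strand, and Fdft1 had 356 to 861 counts per library and a log2 fold change of -0.14 (adjusted p = 0.695 in edgeR), against 11610 to 22688 counts for Ctsb. Ctsl shares 1742 exon bases with the antisense gene Gm47123 and 395 with the pseudogene Gm49230 on its own strand. Neither of these symbols has a row in the count table, so they have no counts to compare. Glb1 shares 165 with Tmppe on its own strand, which had 31 to 62 counts, and Grn shares 68 with Fam171a2 on the opposite strand, which had 11 to 21 counts. Ctsf shares none. How reads in these stretches were assigned is not given in the sources used here.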

How the data were processed

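Liver RNA of 8 male Apoe-/- mice (4 vehicle, 4 ISOGK) was sequenced, with 1 library per mouse. The authors aligned reads with HISAT2 and derived gene counts with StringTie, and the deposited values are raw counts per gene symbol. The labels name the build mm10. The annotation release, and whether counting used strand, are not given in the sources used here. Groups and mouse numbers are those of the sample labels, and table columns named for DMSO were taken as vehicle, since the study's scheme gives DMSO as the vehicle.

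Counts of 16540 genes were filtered with filterByExpr (minimum count of 10, minimum total of 15) and scaled with TMM. ISOGK was compared with vehicle by edgeR 4.0.16 (quasi-likelihood F-test with robust dispersion) in R 4.3.3, with Benjamini-Hochberg adjustment over all 12307 genes tested, and a gene was called at an adjusted p under 0.05. Exact permutation tests used log2 CPM with a prior count of 2. Depth was 17457106 to 24461854 counts per library, intervals are 95% intervals of the fit, and the common biological coefficient of variation was 0.164. No pair of libraries of the same group agreed within sampling noise (chi-square per gene of 18.1 to 99.6). That the libraries are separate mice rests on the labels, without which p-values measure only the spread between samples.

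The members and all gene lists were chosen with earlier results of these data known. Values per mouse are given for called members and, in roles with no call, for the member with the smallest p. Up to 5 called genes were named per wider list, and the markers Alb, Clec4f, Adgre1, Cd68, Gpnmb and Trem2 could be named. Items given outside this rule were chosen after their values were seen. These were Ctsk, the ratios, values per mouse for Gm2a, Sqstm1 and Gpnmb, Atg5, Optn, Lgals3, Krt19, Sox9 and S100a9. In addition, 1 gene was left out of the wider lists and is not reported here. Alternatives were DESeq2 1.42.0, limma-voom (limma 3.58.1), DESeq2's size factors, library size alone, no filter beyond 1 count, at least 10 counts in every library, a fit that was not robust, mouse number as a replicate block, and each mouse left out. Coordinates and transcript lengths are those of GENCODE M21 (GRCm38, the same assembly as mm10), and promoters are those of RefSeq (GRCm38.p6).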

Additional observations from a re-analysis of the deposited data

Results flagged for a closer look

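In 5 of the 120 groups of 4 mice examined, the highest or lowest mouse lay further from the others than Dixon's 95% limit allows, while chance alone would mark 6 (about 1 in 20). Ctsk was 0.524 CPM in ISOGK mouse 4 and 1.23 to 1.27 CPM in the other three, and Ctsz was 233 CPM in the same mouse and 186 to 193 CPM in the others. Acp5 was 125 CPM in vehicle mouse 1 against 86.9 to 88.8 CPM. Slc36a1 was 28.1 CPM in vehicle mouse 3 against 23.1 to 23.9 CPM. The skeletal muscle markers summed to 70.9 CPM in vehicle mouse 4 and to at most 0.467 CPM in the other vehicle-treated mice. Without that mouse, Ctsb, Ctsl and Grn were still called.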

How the results depend on the processing

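The replicate numbers did not pair the mice: same-numbered mice deviated from their group means with correlations of 0.013, -0.0144, 0.0754 and 0.0849, and nothing names a shared litter or day. With the replicate number as a block, 1 member was lower and 6 genes of the wider lists were higher, and the member calls were Ctsb, Ctsl and Grn. The whole table then held 411 higher and 416 lower genes.

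Ctsb and Ctsl were called in every one of the 16 alternatives. Their largest adjusted p over these fits was 0.0434 for Ctsb and 0.0488 for Ctsl, just under the threshold. With limma-voom, 3 genes of the wider lists were lower. With library size alone, 6 members were lower (Ctsd, Gla, Hexa and Smpd1 were added), 4 genes of the wider lists were higher and 9 lower, and the member median was -0.12. With each of the 8 mice left out in turn, 1 to 4 members were higher and 1 was lower, 2 to 11 wider genes were higher and 2 to 4 lower, and the member median lay between -0.027 and 0.027. The number of called members was 2 without vehicle mouse 2, 3 without vehicle mouse 1, 3 or 4 or without ISOGK mouse 2 or 3, 4 without ISOGK mouse 1 and 5 without ISOGK mouse 4. In the whole table, 286, 219, 270 and 299 genes were higher and 225, 160, 226 and 251 lower without vehicle mice 1 to 4. Without ISOGK mice 1 to 4, 509, 252, 712 and 392 genes were higher and 476, 219, 523 and 287 lower, beside 506 and 423 with all mice. The cause of these differences was not tested.

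Only genes that were not called in either fit turned direction. With library size alone the log2 fold changes were -0.042 for Ctsa, -0.057 for Ctsh, -0.11 for Neu1, -0.085 for Psap, -0.055 for Lamp2, -0.12 for Laptm4a, -0.081 for Cln3, -0.11 for Mcoln1, -0.073 for Tfeb and -0.081 for Tfe3. With a mouse left out, Neu1 ranged from -0.051 (without ISOGK mouse 1) to 0.081 and was also negative without vehicle mouse 1 or 2 (-0.026 and -0.0088). Laptm4a ranged from -0.020 (without ISOGK mouse 4) to 0.082, with -0.0065 and -0.010 without vehicle mouse 1 and ISOGK mouse 2. Mcoln1 ranged from -0.010 (without vehicle mouse 1) to 0.032, with -0.0022 without ISOGK mouse 1. Naglu was at 0.0095 and 0.015 without vehicle mouse 4 and ISOGK mouse 4, and Tfe3 ranged from -0.0033 (without vehicle mouse 4) to 0.11. Few counts (Ctsk, Tfeb) limit what could be detected, and intervals cover the spread between these mice only.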

Other observations

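All 5 tested cholangiocyte markers had a log2 fold change above 0, with a median of 0.61. That median is the value of a gene also counted among the lipid-associated macrophage markers. The list summed to 27.6 to 34.8 CPM in the vehicle group and to 46.7, 69.2, 49.1 and 28.3 CPM in ISOGK mice 1 to 4. ISOGK mouse 4 thus lay within the vehicle range. Of the 5 tested markers, 4 had an unadjusted p under 0.05, edgeR called 1 (20%) and DESeq2 called 2. Among all tested genes, edgeR called 7.55%, and 1 call in so short a list does not describe a cell type. The gene called by edgeR was Sox9, a transcription factor of bile duct cells, with 0.51 (adjusted p = 0.0494). Krt19, a keratin of these cells, had 1.39 (edgeR adjusted p = 0.055) at 13 to 78 counts per library. Of 5 tested lymphocyte and neutrophil markers, S100a9 was the 1 called gene, with a log2 fold change of 1.31. Stellate cell and fibroblast markers (10 tested) and endothelial markers (8 tested) held 0 calls by edgeR, with 2 and 1 at an unadjusted p under 0.05, and DESeq2 called 1 and 0 of them.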
